A study of Mus musculus with 9 samples.

Results

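The proteasome subunit genes of the mouse were described in the proximal colon of 9 mice of 3 genotypes: mutant, heterozygous or wild-type for cSHMT, the cytosolic form of serine hydroxymethyltransferase, which Shmt1 encodes. Members were all probe sets with a single gene symbol made of Psma, Psmb, Psmc or Psmd and a number, without the immunoproteasome subunits Psmb8, Psmb9 and Psmb10. This gave 35 of 12393 singly named genes, read by 64 of the 22626 probe sets, of which 50 probe sets for 34 genes were bright enough to be tested. One of the genes, Psmd3, had been singled out because its signal was low in mutant and in heterozygous colons in earlier results of these data. Its values in those comparisons are therefore given as a description, with no test. The other 34 genes were chosen by their names, with earlier results of these data known.

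The groups were 3 mutant, 3 heterozygous and 3 wild-type mice on a C57Bl/6 background, 1 Affymetrix array per mouse, each group called biological replicates in the labels. The line had been backcrossed for 10 generations, and the labels do not say how the allele was made or whether the mutant mice lack the enzyme. All 9 mice, wild-type ones included, were weaned at 3 weeks onto a diet lacking folate and choline, for 6 weeks per one label and 5 weeks per another, and were 9 weeks old. Shmt1 followed the labels: its most changed probe set read 113.1 to 120 in mutant, 274.4 to 337 in heterozygous and 564.3 to 644.1 in wild-type colons. On all 4 Shmt1 probe sets the mutant colons lay below every wild-type one. On the 3 others heterozygous values overlapped wild-type, with means of 76.9%, 84.7% and 94.3% of it, so the heterozygous step rests on 1 probe set. There were 3 arrays per genotype, a number that limits precision.

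The proteasome is the protease that destroys proteins tagged with ubiquitin, and all cells need it. Its barrel-shaped core particle has outer rings of alpha subunits (Psma genes), which form the gate, and inner rings of beta subunits (Psmb genes), which hold the cutting sites. A regulatory particle caps the barrel: its base carries a ring of ATPases (Psmc genes) that unfold substrates, and its lid of Psmd subunits takes the ubiquitin chains off. The subunits are assembled in fixed ratios, and the transcription factor encoded by Nfe2l1 is known to raise their genes together when the proteasome is inhibited. In the colon wall the signal is that of a bulk tissue, in which fewer cells of a type and less RNA per cell cannot be told apart.

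Psmd3, a structural subunit of the lid, was read by 1 probe set on this array. Its signal, in the deposited linear units, was 515.1, 475.4 and 690.7 in the mutant colons, 572.4, 525.1 and 777.2 in the heterozygous colons, and 1061.5, 1095.1 and 1110.6 in the wild-type colons. All 6 colons that carried the mutant allele lay below all 3 wild-type colons, while mutant and heterozygous values overlapped. The means were 560.4 ± 115 in mutant, 624.9 ± 134 in heterozygous and 1089 ± 25.1 in wild-type colons (SD, n = 3 each). Mutant colons thus had 51.5% of the mean signal of wild-type colons, and heterozygous ones 57.4%. On the normalized log2 scale the difference was -0.96 (SE 0.155) in mutant against wild-type, -0.82 (SE 0.155) in heterozygous against wild-type and -0.15 (SE 0.155) in mutant against heterozygous colons. Both comparisons with wild-type share the same 3 wild-type arrays. With 1 probe set, no second reading of Psmd3 stands beside these values.

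The wild-type values of Psmd3 lay close together and those of the carriers did not. The colon numbered 2 was the lowest and the colon numbered 3 the highest in both carrier genotypes. Beta-actin signal at the 3' end over that at the 5' end, a ratio that rises as RNA is shortened, was highest in the arrays numbered 1, at 4.84 in mutant, 4.45 in heterozygous and 5.02 in wild-type, and lay between 2.52 and 3.75 in the other 6. For Gapdh the same ratio was 2.26, 2.18 and 2.90 in these 3 arrays, in that order, and 1.70 to 2.26 in the other 6. It thus set the arrays numbered 1 apart less clearly: mutant 2, at 2.26, lay above heterozygous 1. Without the 3 arrays numbered 1 the Psmd3 difference was -0.93 in mutant and -0.77 in heterozygous against wild-type colons, on the log2 scale.

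**Figure D1:**
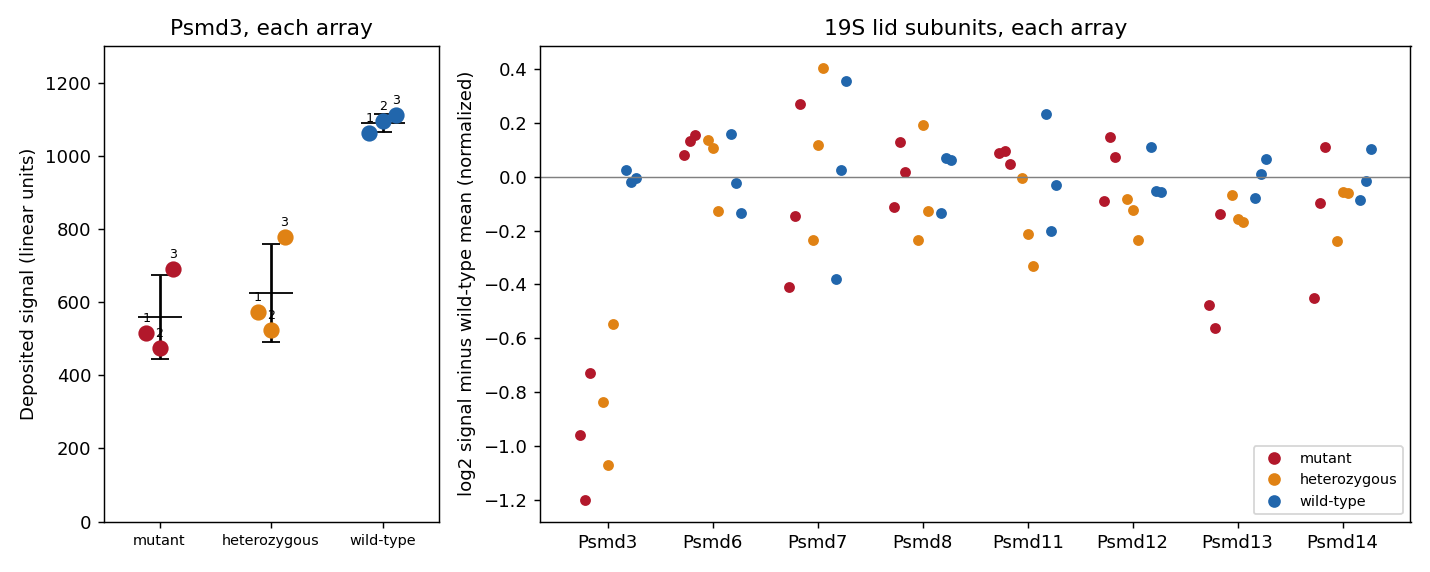
Left, the deposited signal of Psmd3 in each array (points, with the array number), with the mean and SD of 3 arrays per genotype; the 3 wild-type arrays lie between 1061.5 and 1110.6 and all 6 carrier arrays at or below 777.2. Right, normalized log2 signal of the 8 lid subunits in each array, minus the wild-type mean of the gene; Psmd3 is the lowest of the 8 in each of the 6 carrier arrays.

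The other subunits lay nearer to their wild-type levels, and none of them passed the test. Each gene was represented by its tested probe set with the highest mean log2 signal, called leading here. On the deposited scale the 33 other genes had mutant means between 76.4% (Psmd13) and 114% (Psmb4) of wild-type, with a median of 98.1%. Heterozygous means lay between 85.5% (Psmd9) and 126% (Psma5), with a median of 97%. The median log2 fold change of these 33 genes was -0.04 in mutant and -0.06 in heterozygous against wild-type colons, and -0.0044 in mutant against heterozygous. Over all 13576 probe sets tested the medians were 0.0036, -0.0044 and 0.0013. No log2 fold change of the 33 was larger than 0.5 in either direction in any of the 3 comparisons.

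Among the 49 other tested probe sets, 0 passed an adjusted p of 0.05 in limma's test in each of the 3 comparisons. Over all probe sets tested, 0.0221% passed in mutant against wild-type, 0% in heterozygous against wild-type and 0.0221% in mutant against heterozygous. At an unadjusted p under 0.05 there were 3, 3 and 2 of the 49, that is 6.12%, 6.12% and 4.08%, against 3.84%, 8.01% and 7.56% of all probe sets. These shares do not set the subunits apart from the rest of the array.

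Psmd3 was set against its fellow subunits within each array. The mean log2 signal of the 33 other leading probe sets was 10.35 ± 0.0811 in mutant, 10.36 ± 0.0247 in heterozygous and 10.39 ± 0.044 in wild-type colons (SD, n = 3 each). The genotype means of the complex as a whole differed by less than the SD of the mutant colons. Psmd3 minus that mean was -1.12, -1.41 and -1.04 in the mutant colons, -1.05, -1.33 and -0.79 in the heterozygous colons, and -0.22, -0.28 and -0.33 in the wild-type colons. Probe sets differ in brightness for the same amount of RNA, so only the change of this difference between arrays can be read, not its size.

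In each of the 6 carrier arrays, 0 of the 33 other genes lay further below their own wild-type mean than Psmd3 did. Psmd3 was 0.55 to 1.2 below its wild-type mean on the log2 scale, where the lowest value of any other subunit in a carrier array was -0.56 (Psmd13 in mutant 2) and the highest 0.64. The low position of Psmd3 is what led to its choice, so this is a description. Its SD within genotypes was 0.20 on the log2 scale, against a median of 0.12 for the other 33 genes, which ranged from 0.0571 to 0.34 (Psmd7).

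**Figure D2:**
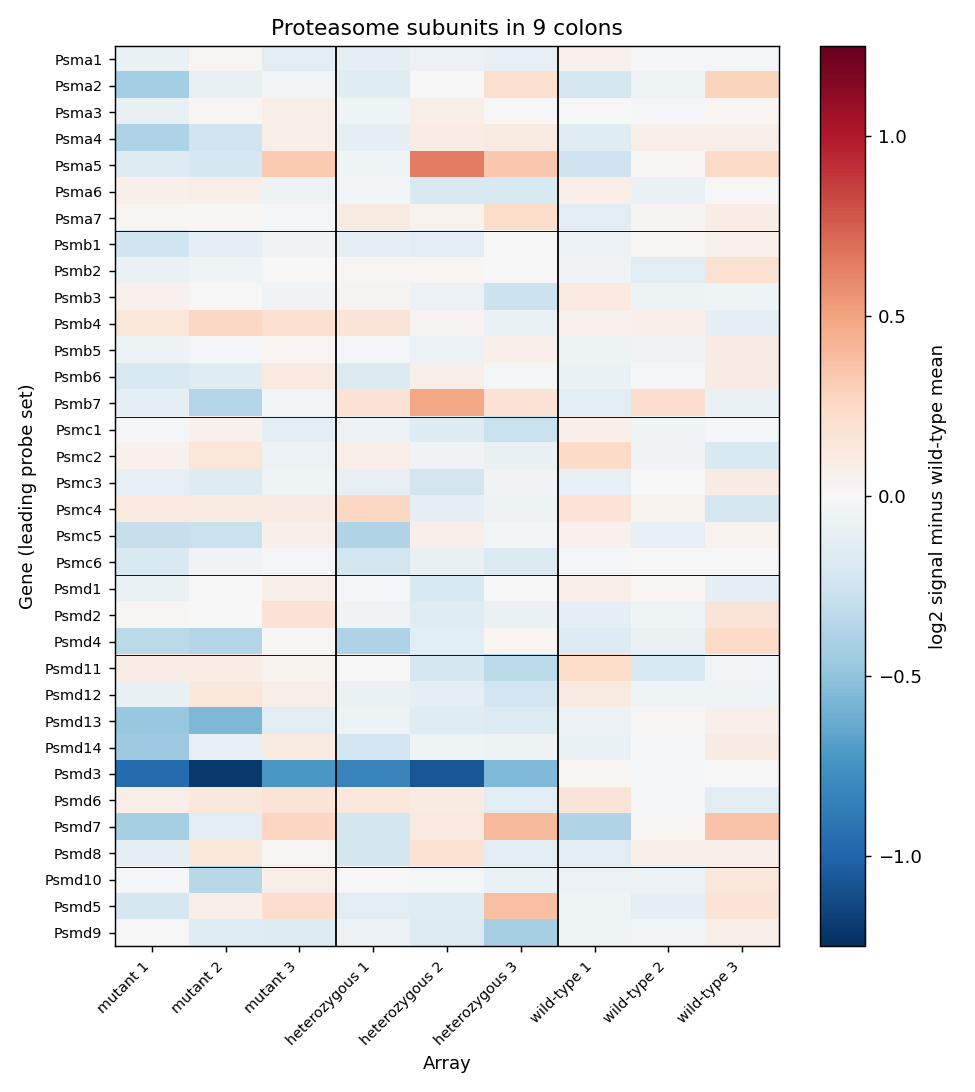
Normalized log2 signal minus the wild-type mean of each gene for the leading probe sets of 34 subunit genes (rows, in order of their place in the complex) in 9 arrays (columns, by genotype). The Psmd3 row lies between -0.55 and -1.2 in the 6 mutant and heterozygous arrays, and no other row is as low as Psmd3 in any of them.

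The other 7 lid genes measured had a median log2 fold change of 0.01 in mutant and -0.12 in heterozygous against wild-type colons. Psmd6 stood at 0.12 and 0.04 in these comparisons, Psmd8 at 0.01 and -0.06, Psmd11 at 0.08 and -0.18, and Psmd12 at 0.04 and -0.15. Psmd7 had -0.10 and 0.10, and Psmd14, the enzyme that removes ubiquitin chains, -0.15 and -0.12. None of these passed. A second probe set of Psmd6 read 2070.2, 2316.8 and 2170.8 in mutant, 2065.1, 1950.9 and 1905.5 in heterozygous, and 2626.7, 2330.7 and 2091.1 in wild-type colons. All heterozygous values lay below the wild-type ones, at -0.23 (SE 0.0852), with an adjusted p of 0.584 in limma's test.

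Psmd13, also a lid subunit, was the lowest after Psmd3 in mutant colons. Its leading probe set read 343.5, 358.6 and 515.8 in mutant, 473.1, 489.3 and 495.2 in heterozygous, and 460.5, 549.9 and 584.1 in wild-type colons. Mutant 1 and mutant 2 were low and mutant 3 lay among the wild-type values in deposited units. Mutant over wild-type colons gave a log2 value of -0.39 (SE 0.132), which did not pass (adjusted p = 0.998 in limma's test). A second probe set of Psmd13 read 255.1, 230.2 and 445.4 in mutant, 225.2, 266.3 and 258.2 in heterozygous, and 275.6, 352.5 and 437.3 in wild-type colons. It was lowest in heterozygous colons, where the log2 fold change against wild-type was -0.47 (SE 0.193, adjusted p = 0.599 in limma's test), so the probe sets of this gene did not rank the genotypes alike.

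**Figure D3:**
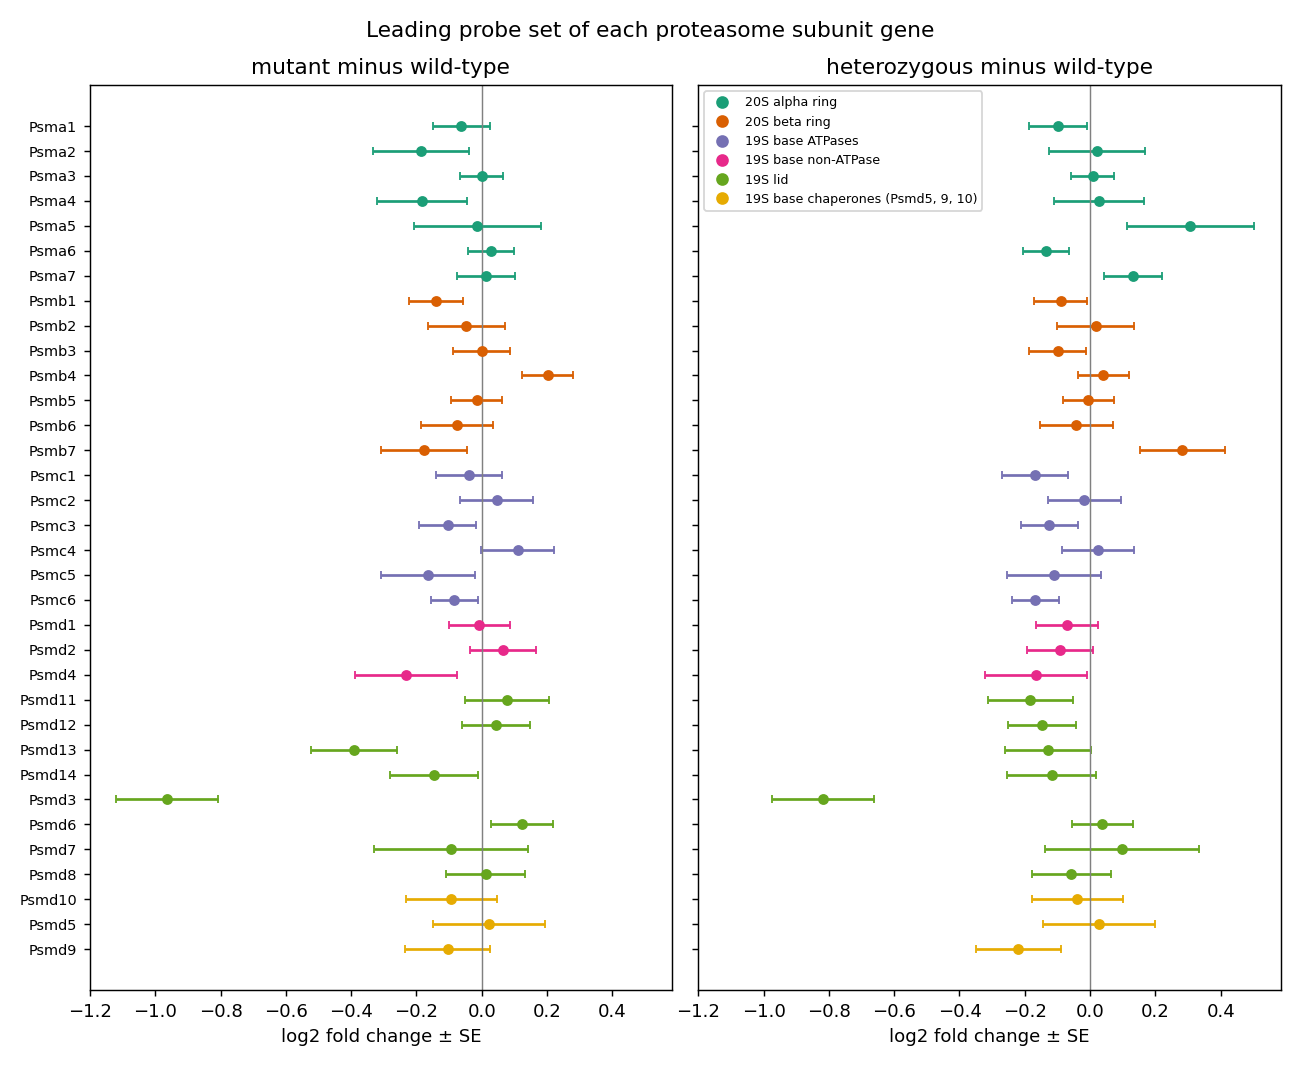
Log2 fold change with its SE (bars) of the leading probe set of 34 proteasome subunit genes, in mutant minus wild-type (left) and heterozygous minus wild-type (right), from 1 limma fit of 9 arrays; colours mark the part of the complex. Psmd3 lies at -0.96 and -0.82, and the other 33 genes between -0.39 and 0.31 in both panels.

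In the base of the regulatory particle, the 6 ATPase genes had a median log2 fold change of -0.06 in mutant and -0.12 in heterozygous against wild-type colons. Psmc1 had -0.04 and -0.17, Psmc3 -0.10 and -0.13, Psmc4 0.11 and 0.02, and Psmc5 -0.17 and -0.11. Psmc6 read 2570, 2689 and 2581 in mutant, 2429, 2548 and 2366 in heterozygous, and 2981, 2702 and 2672 in wild-type colons. All heterozygous values of Psmc6 were below the wild-type ones, at a log2 fold change of -0.17, which did not pass (adjusted p = 0.601 in limma's test). Mutant values, at -0.08, overlapped wild-type in deposited units but lay below it after normalization. A second tested probe set of Psmc6 went the other way, at 0.14 in mutant and 0.05 in heterozygous against wild-type colons.

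Psmc2 was read differently by its 2 tested probe sets. The leading one had log2 fold changes of 0.05 in mutant and -0.02 in heterozygous against wild-type. The other read 858, 961.1 and 982.7 in mutant, 1031.4, 1035.5 and 1083.4 in heterozygous, and 1152.9, 1104.8 and 1184.2 in wild-type colons. On it the 3 genotypes did not overlap, with mutant lowest. Set against wild-type, the mutant colons differed by -0.30 on the log2 scale (SE 0.093), which did not pass (unadjusted p = 0.00861, adjusted p = 0.998 in limma's test).

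Of the base subunits without ATPase activity, the scaffold proteins Psmd1 and Psmd2 had log2 fold changes of -0.01 and 0.07 in mutant and of -0.07 and -0.09 in heterozygous against wild-type colons. Psmd4, a receptor for ubiquitin chains, had -0.23 and -0.17. The products of 3 genes with Psmd names help to assemble the base and leave the finished particle. Of these, Psmd5 had 0.02 and 0.03, Psmd9 -0.10 and -0.22, and Psmd10 -0.09 and -0.04. The heterozygous value of Psmd9 was the lowest among the 33 leading probe sets other than that of Psmd3. None of the 6 passed.

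In the core particle the 7 alpha ring genes measured had medians of -0.01 in mutant and 0.02 in heterozygous against wild-type colons. Psma1 had -0.06 and -0.10, Psma2 -0.19 and 0.02, Psma3 0.000091 and 0.0079, Psma4 -0.18 and 0.03, Psma6 0.03 and -0.13, and Psma7 0.01 and 0.13. Psma5 had -0.01 and 0.31. Its 3 heterozygous values, 1463.6, 2352.4 and 1881.3, overlapped the wild-type ones of 1227.2, 1536.2 and 1770.1. The mutant values were 1337.7, 1325.7 and 1875.6 and overlapped both. The heterozygous difference did not pass (adjusted p = 0.712 in limma's test). The eighth alpha gene, Psma8, known from the testis, gave signals between 0.6 and 7.6 in all 9 arrays and was not tested.

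The 7 beta ring genes had medians of -0.05 in mutant and -0.0065 in heterozygous against wild-type colons. Psmb5, Psmb6 and Psmb7 carry the cutting sites. Psmb5 had -0.01 and -0.0065, and Psmb6 -0.08 and -0.04. Among those without a cutting site, Psmb1 had -0.14 and -0.09, Psmb2 -0.05 and 0.02, and Psmb3 -0.00044 and -0.10. Psmb4 had 0.20 and 0.04, and its higher mutant value had an adjusted p of 0.998 in limma's test; in deposited units mutant values of 3637.3, 3564.4 and 3184.1 overlapped the wild-type ones of 3443, 3028.5 and 2671.8.

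Psmb7 differed most between the carrier genotypes. It read 1492.6, 1272.7 and 1591.8 in mutant and 1895.9, 2262 and 1817.1 in heterozygous colons, with no overlap, and 1458.7, 1900.4 and 1534.5 in wild-type colons. Mutant over heterozygous colons gave a log2 value of -0.46 (SE 0.131), with an unadjusted p of 0.00481 and an adjusted p of 0.523 in limma's test. Against wild-type it was -0.18 in mutant and 0.28 in heterozygous colons. On the higher side, the leading probe sets of Psma6 and Psmd11 stood at 0.16 and 0.26 in mutant against heterozygous colons, and did not pass (adjusted p = 0.655 and 0.676 in limma's test).

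Values of 2 genotypes that did not overlap were counted on the normalized scale. In mutant against wild-type, 3 of the 49 other probe sets were lower throughout (6.12%, against 4.19% of all probe sets) and 2 higher throughout (4.08%, against 4.23%). In heterozygous against wild-type, 8 of 49 were lower throughout (16.3%, against 7.42%) and 0 higher (0%, against 7.28%). The 8 belong to Psma1, Psmc1, Psmc2, Psmc6, Psmd6, Psmd9, Psmd12 and Psmd13, and their log2 fold changes were between -0.10 and -0.47. In mutant against heterozygous, 4 were lower (8.16%, against 6.08%) and 2 higher (4.08%, against 6.35%).

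Probe sets of a gene often disagreed in sign. Of the 13 genes with several tested probe sets, 7 had fold changes of both signs in mutant against wild-type, 8 in heterozygous against wild-type and 6 in mutant against heterozygous. Psmd11, with 4 tested probe sets, spanned -0.21 to 0.16, -0.18 to 0.18 and -0.13 to 0.26 on the log2 scale in these comparisons. The largest gap between probe sets of a gene was 0.52, of Psmd13 in mutant against heterozygous. The Psmd3 difference from wild-type was larger than every such gap, but Psmd3 was chosen for that difference, so this is a description. With 1 probe set, the gap of Psmd3 itself is not known.

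The number of the array, which the labels use for the replicate, went with many subunits. The 3 means by array number spanned more than the 3 means by genotype in 31 of 49 other probe sets (63.3%), against 57.9% of all probe sets tested. The array numbered 1 was lowest in each genotype in 11 of 49 (22.4%, against 10.3% of all) and highest in each in 5 (10.2%, against 9.09%). Psmd7, the partner of Psmd14 in the lid, read 103.8, 145 and 218.9 in mutant, 125.1, 184 and 236.7 in heterozygous, and 105.7, 174 and 227.1 in wild-type colons. Its values fell into 3 levels by array number, with genotypes overlapping fully. For Psmd7 the means by number spanned 0.69 on the log2 scale and those by genotype 0.19; for Psmd3 they spanned 0.34 and 0.96. The part of RNA shortening in these patterns was not tested.

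**Figure D4:**
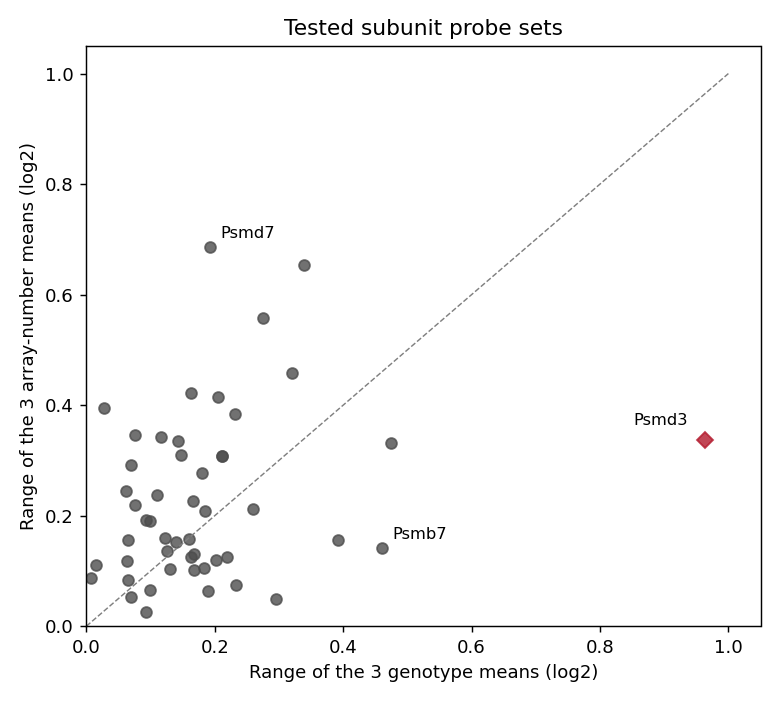
Each point is 1 of 50 tested subunit probe sets; the horizontal axis is the range of the 3 genotype means and the vertical axis the range of the 3 array-number means, both in log2 units, with a dashed line where they are equal. Psmd3 lies far to the right at 0.96, against 0.34 by number, and Psmd7 is the highest at 0.69 by number.

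Psmd3 lies on chromosome 11, as Shmt1 does, in the GRCm38.p6 gene table, which was used for gene order only. The table places 637 protein-coding genes between them. Of the subunit genes 6 are on this chromosome, and the order from Shmt1 is Psmb6, Psmd11, Psmb3, Psmd3, Psmc5 and Psmd12. The 5 other than Psmd3 had median log2 fold changes of -0.00044 in mutant and -0.11 in heterozygous against wild-type colons, and the 28 on other chromosomes -0.04 and -0.03.

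The 5 protein-coding genes on each side of Psmd3 were then read. Of these 10, 6 are named singly on the array and 5 were tested, on 9 probe sets, none of which passed. Gsdma, a gasdermin gene next to Psmd3, read 79, 102.6 and 88.8 in mutant, 89.4, 73 and 93.5 in heterozygous, and 74.2, 44.9 and 49.9 in wild-type colons. In deposited units all 3 mutant values lay above the wild-type ones, while heterozygous values overlapped them, and after normalization both genotypes overlapped wild-type. Its log2 fold changes were 0.57 (adjusted p = 0.998 in limma's test) and 0.45 (adjusted p = 0.633 in limma's test). Gsdma was dim: its wild-type mean of 56.3 lay under the filter's linear signal of 75.5, and its mutant and heterozygous means of 90.1 and 85.3 above it. Its place among the tested probe sets thus rests on the carrier arrays, which favours positive values. On the other side Csf3, a growth factor of granulocytes, gave signals of at most 1.2 and was not tested. Med24, a Mediator subunit, had 0.13 and 0.11. It was dim too: its wild-type mean of 75.4 lay just under the filter's signal, and its mutant and heterozygous means of 81.6 and 83.2 above it. Thra, a thyroid hormone receptor, had 0.38 and 0.22 on one probe set and 0.32 and 0.22 on the other. Nr1d1, a repressor of the circadian clock, had 0.29 and -0.06. The 4 probe sets of Msl1, a part of a histone acetylating complex, lay between -0.12 and 0.25 in mutant and between -0.13 and 0.17 in heterozygous against wild-type. The lowest value of these 9 probe sets in either comparison was -0.13.

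**Figure D5:**
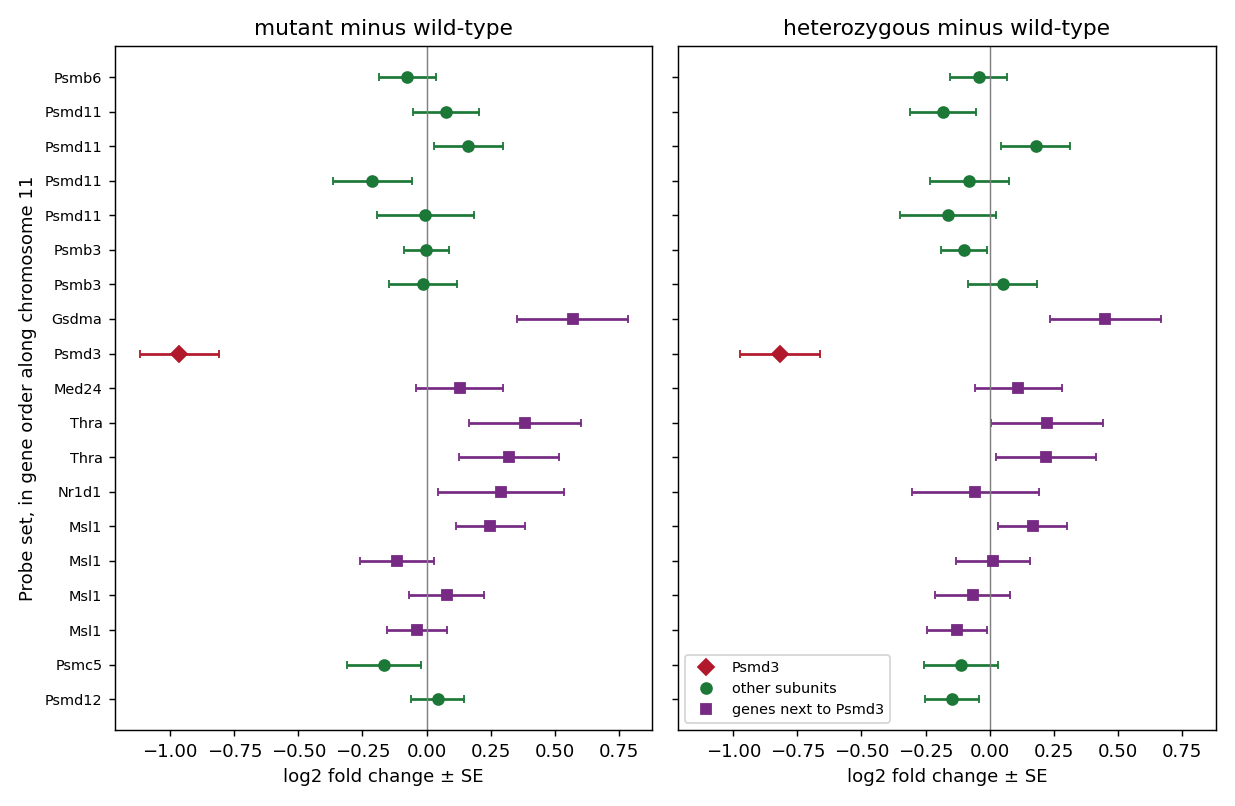
Log2 fold change with its SE (bars) of tested probe sets in gene order along chromosome 11, in mutant minus wild-type (left) and heterozygous minus wild-type (right): Psmd3 (diamond), other proteasome subunits (circles) and genes next to Psmd3 (squares). Psmd3 lies at -0.96 and -0.82. Gsdma beside it lies at 0.57 and 0.45, but is dim, with a wild-type mean under the filter signal.

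The genes around the proteasome were taken from lists by role and read by their leading probe sets. On these, 0 of their members passed in any of the 3 comparisons in limma's test. Psmb8 of the immunoproteasome read 954.5, 507.7 and 579.3 in mutant, 423.6, 1313.4 and 921.6 in heterozygous, and 1246.3, 1001.4 and 1221.8 in wild-type colons, and the carriers spread widely. Psmb8 had log2 fold changes of -0.82 in mutant and -0.50 in heterozygous against wild-type, Psmb9 -0.46 and -0.37, and Psmb10 -0.02 and -0.14. These subunits replace the cutting ones under interferon. By genotype mean, 16 of 16 tested interferon-induced genes were below wild-type in both carrier genotypes, with medians of -0.76 and -0.91. Of all 13576 probe sets, 6655 in mutant and 6920 in heterozygous colons were below it. Single mice differed: Ifit1 read 2897.8 in mutant 1 and 2691.6 in heterozygous 2, within the wild-type range of 2053.1 to 3586.2. In the other carriers it read at most 1141.5. Over 17 of 20 interferon-induced genes on the array the summed signal was 5279 to 14979 in mutant, 3395 to 15027 in heterozygous and 12093 to 19252 in wild-type colons. The part of interferon genes in the Psmb8 and Psmb9 values was not tested.

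The activators and the inhibitor had medians of -0.0020 and -0.04 over 4 genes. Psme1, part of an interferon-induced activator, had -0.32 in mutant (unadjusted p = 0.0275 in limma's fit) and -0.14 in heterozygous colons, and Psme4, a nuclear activator, -0.04 and -0.32. The 8 genes of assembly and of further parts of the regulatory particle had medians of -0.09 and -0.10, with Ecpas, which clamps the particle to the core, at -0.18 and -0.23. Ubiquitin receptors and deubiquitinases at the proteasome had medians of 0.08 and 0.04 over 9 genes. Ubqln4, which shuttles substrates, had 0.08 and 0.24. The segregase Vcp and its cofactors had medians of -0.06 and -0.09 over 8 genes, Vcp itself -0.09 and -0.18 and Ufd1 0.02 and 0.34.

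None of the regulators passed. Nfe2l1 had log2 fold changes of -0.04 in mutant and -0.07 in heterozygous against wild-type colons, and Nfe2l2 -0.09 and 0.02. Mafk, a small partner of both, had 0.16 and -0.24, and 0.40 in mutant against heterozygous (unadjusted p = 0.029, adjusted p = 0.649 in limma's fit). The 5 regulators had medians of -0.04 and -0.07. A list of 6 genes for ubiquitin and its activation had 0 members with a singly named probe set.

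The tissue was checked by marker lists. Colon epithelium markers were measured in 13 of 14 genes, and their summed signal was 44244 to 54819 in mutant, 42411 to 48880 in heterozygous and 46775 to 52196 in wild-type colons. Of the small intestine markers, Lct and Apoa4 gave at most 44.6 while Fabp6 and Fabp2 were high in every array. Smooth muscle markers, measured in 10 of 10 genes, summed to 27009 to 32057 in mutant, 24710 to 26546 in heterozygous and 30223 to 30620 in wild-type colons, so heterozygous colons lay below both. T cell markers, in 6 of 7 genes, summed to 790 to 2244, 815 to 2014 and 1235 to 2626 in these genotypes. B and plasma cell markers, in 5 of 7, summed to 4467 to 7623, 5272 to 5946 and 5367 to 8757, adipocyte markers, in 6 of 8, to 4050 to 8981, 8398 to 11567 and 9084 to 12689, and macrophage markers, in 8 of 8, to 6568 to 9639, 7862 to 8848 and 7600 to 11296. Of these sums, smooth muscle in heterozygous and adipocyte in mutant colons did not overlap wild-type. The highest adipocyte sum of a mutant colon, 8981, lay close to the lowest wild-type one, 9084. Of the tested adipocyte genes only Fabp4 lay below wild-type in all mutant colons, while Adipoq, Retn, Lpl and Cidec overlapped it. Such sums are carried by their brightest genes, and single markers of the B and T cell lists lay apart from wild-type beneath them. Ighm, the heavy chain of IgM, read 466.1, 518 and 431.4 in mutant, 255.9, 418.3 and 352.8 in heterozygous, and 851.2, 1078.1 and 667.6 in wild-type colons, at log2 fold changes of -0.84 and -1.31. On this leading probe set all 6 carrier arrays of Ighm thus lay below wild-type. That also held for Psmd3, for Ecpas and for the second tested probe set of Psmc2, so it was not particular to Ighm and Psmd3. Its share over all probe sets was not counted. Neither Ighm value passed (adjusted p = 0.998 and 0.232 in limma's test). Another Ighm probe set had the lowest log2 fold change of all 13576 tested in mutant against wild-type, at -3.89. Jchain, the other tested gene of the B and plasma cell list, overlapped wild-type, at -0.13 and -0.08. The T cell genes Cd3d and Cd8a lay below wild-type in all 3 mutant colons, at -0.82 and -1.23, and overlapped it in heterozygous colons. Others of the T cell list differed: Cd3e and Thy1 overlapped wild-type in mutant colons, at -0.22 and -0.31. Cd3g, too dim to be tested, lay below wild-type in mutant colons, and Cd4, also untested, averaged 124% of it there. The part of cell makeup in the Psmd3 values was not tested.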

How the data were processed

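Total RNA of 9 proximal colons, about 50 ng each, was amplified (NuGEN Ovation) and biotin-labelled, according to the labels' protocols. The deposited values are intensities, 1 linear signal per probe set and array; the submitters' processing notes name GCOS. The version and the scaling are not named in the sources at hand. In the deposited values the 2% trimmed mean lay between 500.1 and 500.2 in all 9 arrays, so they had been scaled to a common mean near 500. The 64 control probe sets were left out, 16 was added, log2 was taken and the arrays were quantile normalized. Probe sets whose mean lay under the 40th percentile (linear signal 75.5) were left out, which kept 13576 of 22626. Fold changes are on this log2(signal + 16) scale, which understates those of dim probe sets. Linear signals, with their SD, are printed as deposited.

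All 9 arrays entered 1 limma fit (lmFit, eBayes with trend; limma 3.58.1, R 4.3.3) with no covariate, with Benjamini-Hochberg adjustment over all 13576 probe sets. The fit was tested on simulated data. The design text names the comparisons of mutant and of heterozygous with wild-type; mutant against heterozygous was added. Nothing in the labels says more of the replicates than that they are biological, so p-values measure the spread between these mice.

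Symbols were taken from GEO's platform annotation and may be outdated: 20380 probe sets have 1 symbol, 691 several and 1555 none here, and those with several or none are not named. Psmb11 has no singly named probe set. The 14 member probe sets that were not tested averaged 1.14 to 60.3 and were 13 further ones of tested genes and that of Psma8. Named with full values were Psmd3, members that passed, and the 3 with the smallest p per comparison and direction, and the other subunits by their fold changes. Array values of Psmc6, Psmd7 and Psmb8 were added after they were seen. Members and lists were chosen with earlier results of these data known. The outside lists hold 130 genes, 107 of them on the array. Figures were drawn with Python 3.11.15 and matplotlib 3.10.9.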

Additional observations from a re-analysis of the deposited data

How the results depend on the processing

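There were 13 alternatives, and each of the 9 arrays was left out in turn. The count of subunit probe sets that passed was 0 in all 3 comparisons in the fit as reported. It became 1 in mutant against wild-type with array weights and with the replicate number as a block, and 1 in heterozygous against wild-type with array weights. The probe set was Psmd3 each time, which was singled out for its low values in these same comparisons, so these calls are no test of it and support nothing. The settings also moved the calls over all probe sets: array weights gave 9 in place of 3 in mutant and 134 in place of 0 in heterozygous against wild-type, and the block gave 5 in mutant. None of the other subunits passed under any of the alternatives run. With 1 array left out the count stayed at 0 in each comparison. The replicate block gave 1, 0 and 0 in mutant against wild-type, heterozygous against wild-type and mutant against heterozygous, with the same fold changes as without it. Same-numbered arrays correlated at -0.0589 to 0.463 in their deviations from the genotype means over 9 pairs, and different-numbered ones at -0.507 to 0.275. Not every same-numbered pair was above 0.1 and the labels give the number no meaning, so the block was kept as an alternative. Arrays of a number still shared features, such as the high actin ratio of those numbered 1, and what the number stands for was not tested.

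The Psmd3 log2 fold change lay between -1.0 and -0.91 in mutant against wild-type and between -0.83 and -0.77 in heterozygous against wild-type over the 13 alternatives. With 1 array left out it lay between -1.09 and -0.85 and between -0.96 and -0.69. In both comparisons it was below that of every other leading probe set in all of these runs. Psmd3 was chosen for its low values in these comparisons and the runs reuse the same arrays, so this is a description. In mutant against heterozygous the Psmd3 value lay between -0.27 and -0.01 with 1 array left out. The median of the other subunit genes stayed between -0.08 and 0.05 in every run and comparison. The 16 further named values kept their sign and their side of the threshold each time. They gave 336 values over the alternatives and the arrays left out, with a lowest adjusted p of 0.0654 in limma's test. Small changes of dim probe sets are limited by the low signal and by 3 arrays per genotype.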
